A study of Mus musculus with 2 samples.

Results

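The Siglecs are the sialic acid-binding immunoglobulin-like lectins, a family of cell surface receptors that read sialylated glycans. Of the 22180 genes measured with a single gene symbol, 9 belong to the family and were taken by name: Siglecf, Siglece, Siglecg, Siglech, Siglec1, Siglec15, Cd22, Cd33 and Mag. Each of the 9 has 1 row on the array. The arrays held RNA of mouse alveolar macrophages, which live in the airspaces of the lung. There was 1 array from adult C57BL6 mice with floxed Pikfyve alleles and LysM-Cre, labelled knockout, and 1 from adult C57BL6 littermates with the same floxed alleles and no Cre named, labelled wild type. LysM-Cre is driven from the lysozyme 2 locus, which is active in macrophages, monocytes and neutrophils. The number of mice behind each array is not given in the labels. With 1 array per genotype no value below has replicate error and no difference was tested.

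Most Siglecs are inhibitory. Their cytoplasmic tails carry immunoreceptor tyrosine-based inhibitory motifs (ITIMs), which recruit the phosphatases SHP-1 and SHP-2 when the receptor binds sialic acid on the same or a neighbouring cell. Siglec-H and Siglec-15 instead pair with the adaptor DAP12, whose ITAM motif activates the kinase Syk, and Siglec-1 has a long extracellular part with no known signalling motif. In the mouse lung Siglec-F marks alveolar macrophages and eosinophils. PIKfyve makes phosphatidylinositol 3,5-bisphosphate on endosomes and lysosomes, the compartments into which many Siglecs are taken up.

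Values are log2 RMA signals, differences are the array labelled knockout minus the array labelled wild type, and folds are powers of 2 of their size. The 12516 genes whose mean reached the median of all rows, 5.13, were compared, and all 9 Siglec genes were among them. Background is the 95th percentile of 1430 olfactory, vomeronasal and taste receptor genes, 5.31 in the array labelled knockout and 5.37 in the array labelled wild type. The local spread is the scatter of differences among genes of similar level and ran from 0.20 to 0.33. It holds noise and any real differences together. Pikfyve itself read 5.95 in the array labelled knockout and 5.68 in the array labelled wild type, 0.27 higher where the local spread was 0.26. It was not known which exons its probes match, and this reading therefore cannot serve as a check of the labels. Of the genes compared, 480 read higher in the array labelled knockout by 1.5-fold or more and 270 read lower by as much, with a reading below background moved up to it. With each array centred on its median the split was 639 and 184.

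Among the Siglec genes, Siglece and Siglecf read lower by 1.5-fold or more in the array labelled knockout, and Cd33 read higher by as much. That is 2 lower and 1 higher of 9, where 2.16% of all genes compared were lower, 3.84% higher and 5.99% apart by 1.5-fold. Among genes of similar level the share 1.5-fold apart was larger, 8.79% for Siglecf, 11.7% for Siglece and 8.15% for Cd33. All 3 are Siglecs of myeloid cells and all 3 lay far above background on both arrays. The other 6 genes were less than 1.5-fold apart. The median difference of the 9 genes was -0.15, beside 0.00 over all genes compared, with 6 lower, 2 higher and 1 at exactly 0. At 2-fold, Siglece alone remained, on the lower side, beside 0.272% of all genes compared that were 2-fold lower and 0.807% that were 2-fold higher.

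**Figure D1:**
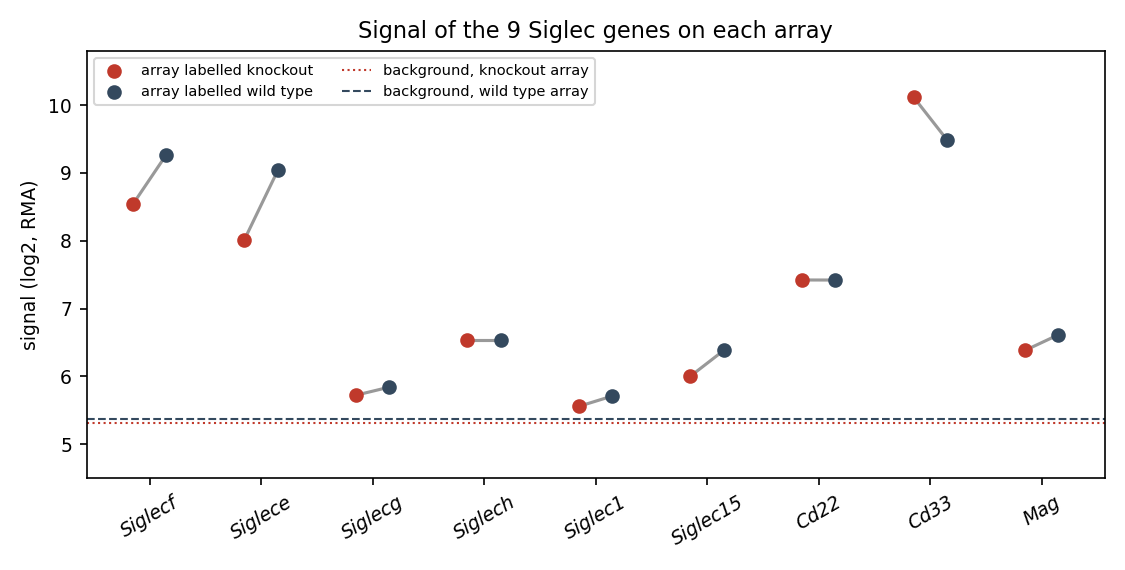
Signal (log2, RMA) of each of the 9 Siglec genes on the array labelled knockout (red, left) and the array labelled wild type (dark, right), joined by a line, with the background level of each array dotted or dashed. Siglecf and Siglece read lower and Cd33 higher in the array labelled knockout, and Siglecg and Siglec1 lie just above background on both arrays.

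Siglecf, Siglecg, Cd33 and Siglece lie in that order on chromosome 7 in the RefSeq gene order (assembly GRCm38.p6) and form the cluster of CD33-related Siglecs. Siglecf and Siglecg are adjacent among the measured genes, 7 measured genes separate Siglecg from Cd33, and 4 separate Cd33 from Siglece. The start regions of the 3 cluster genes that differed by 1.5-fold are shown because Siglecf and Cd33 share a stretch there and differed in opposite directions. RefSeq start windows, from 250 bases before to 50 after an annotated start, were at hand for 7 of the 9 members (Siglecf, Siglecg, Siglece, Siglech, Cd22, Cd33 and Mag), and other starts of a gene may exist. Each line gives a window from 5′ to 3′ on the gene's strand, with capitals for the ETS core GGAAGT and the RUNX core TGTGGT, motifs of transcription factor families to which the myeloid factors PU.1 and RUNX1 belong. The Siglecf window is chr7:43351091-43351390 on the plus strand, the Cd33 window chr7:43533122-43533421 on the minus strand and the Siglece window chr7:43660112-43660411 on the minus strand, all in GRCm38.p6.
Siglecf: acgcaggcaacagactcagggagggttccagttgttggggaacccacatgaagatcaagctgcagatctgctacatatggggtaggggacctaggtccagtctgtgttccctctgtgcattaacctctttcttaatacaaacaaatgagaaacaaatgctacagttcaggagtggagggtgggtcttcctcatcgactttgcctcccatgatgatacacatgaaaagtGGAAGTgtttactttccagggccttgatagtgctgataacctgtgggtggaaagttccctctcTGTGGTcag
Cd33: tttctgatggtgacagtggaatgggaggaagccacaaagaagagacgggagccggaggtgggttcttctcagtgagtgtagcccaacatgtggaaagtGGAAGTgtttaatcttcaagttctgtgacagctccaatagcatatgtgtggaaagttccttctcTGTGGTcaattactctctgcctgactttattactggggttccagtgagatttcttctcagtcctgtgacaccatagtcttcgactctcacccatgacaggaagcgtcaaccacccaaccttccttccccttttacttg
Siglece: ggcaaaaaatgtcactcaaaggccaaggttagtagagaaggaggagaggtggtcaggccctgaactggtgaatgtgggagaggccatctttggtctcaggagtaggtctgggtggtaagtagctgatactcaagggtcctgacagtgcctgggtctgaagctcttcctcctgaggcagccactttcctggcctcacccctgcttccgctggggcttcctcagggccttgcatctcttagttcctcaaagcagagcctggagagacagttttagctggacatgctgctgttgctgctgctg

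The longest run common to the Siglecf and Cd33 windows was 16 bases, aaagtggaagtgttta, and of 32851 windows in the RefSeq table only those 2 held it. From the start of that run to the end of the RUNX core, 74 bases in Siglecf and 75 in Cd33, 58 bases were identical in a global alignment (77.3% of its columns). Both ends of this stretch were chosen because they match, which raises that share, and no other stretch or pair was aligned for comparison. The ETS and RUNX cores begin 63 bases apart in Siglecf and 64 in Cd33. The ETS core begins 22 bases before the annotated start in Siglecf and 152 before it in Cd33. The Siglece window holds neither motif on either strand, and its longest run in common with the Siglecf window was 10 bases. Both motifs also stood in the window of Siglech, which did not differ between the arrays as read, and 1 of 3 Mag windows held the RUNX core. Of all windows 23.8% held the ETS core, 16.8% the RUNX core and 4.18% both, searched on both strands, and the cores do not overlap each other. These matches describe letters in a window and not binding.

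Siglecf encodes Siglec-F, an inhibitory receptor and one of the 2 surface proteins by which the cells were sorted. It read 8.54 in the array labelled knockout and 9.27 in the array labelled wild type. It was lower by a difference of -0.73, or 1.66-fold, which is 2.33 times its local spread of 0.31. Among the 626 genes of similar level 4.47% differed by as much or more, and the median gene was higher by 0.12. Cells were kept when they carried Siglec-F and CD11c and excluded DAPI, so the row reads RNA of cells that had passed a gate on its own protein. Itgax, which encodes CD11c, the other gate protein, read 10.39 in the array labelled knockout and 10.03 in the array labelled wild type.

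Siglece encodes Siglec-E, an ITIM-bearing receptor of neutrophils, monocytes and macrophages. It read 8.02 in the array labelled knockout and 9.04 in the array labelled wild type, the widest gap of the 9 genes. The difference was -1.02 (2.03-fold lower) against a local spread of 0.33, and 1.60% of the 625 genes of similar level differed by as much. Its difference and that of Siglecf lay 0.29 apart.

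Cd33 encodes CD33, a Siglec of myeloid cells. It read 10.12 in the array labelled knockout and 9.49 in the array labelled wild type. It was higher by 0.63 (1.55-fold), 2.13 times its local spread of 0.30, and 6.07% of the 626 genes of similar level differed by as much. The median gene at that level was itself higher by 0.15. The value lies close to the 1.5-fold threshold, and it was 0.54 after quantile normalisation and 0.57 after loess centring, both short of it. Because Cd33 was higher while Siglece and Siglecf were lower, its difference exceeded theirs by 1.65 and 1.36. Median centring cannot change these gaps. They were 1.61 and 1.34 after quantile normalisation and 1.64 and 1.36 after loess centring.

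Siglecg, the remaining gene of the cluster, encodes Siglec-G, an inhibitory receptor best known from B cells. It read 5.72 in the array labelled knockout and 5.84 in the array labelled wild type, and its difference of -0.12 was smaller than its local spread of 0.26. Both readings were less than 0.50 above background, and 97.1% and 96.8% of the sensory receptor genes read lower on the knockout and wild type arrays. At that level the row cannot be told from background with confidence, although its neighbour Siglecf was far above it.

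**Figure D2:**
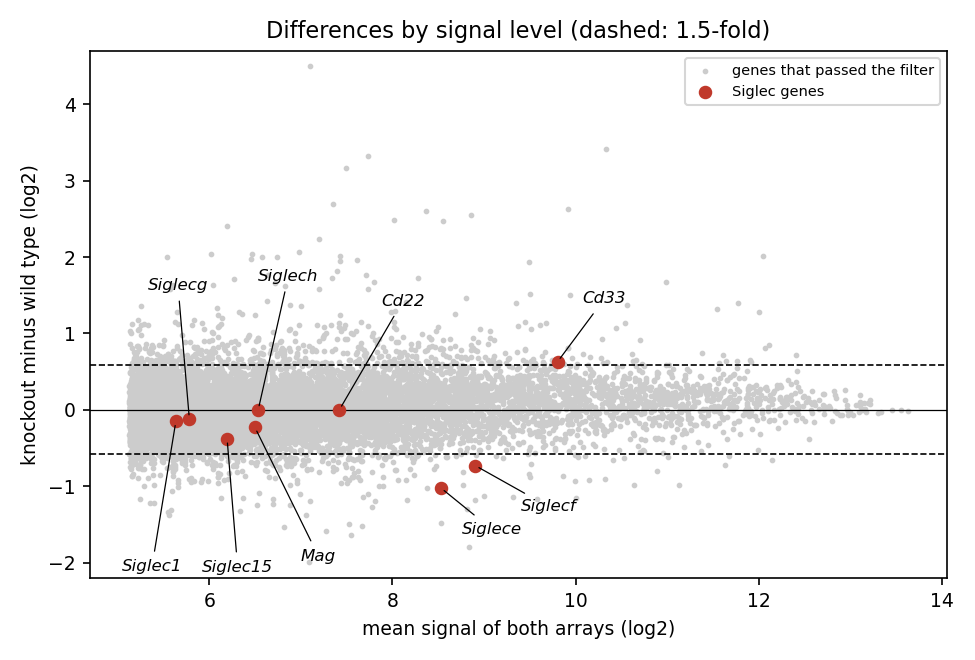
Difference between the arrays (knockout minus wild type, log2) against the mean signal of both arrays (log2) for the 12516 genes compared (grey) and the 9 Siglec genes (red), with dashed lines at 1.5-fold. Siglece and Siglecf lie below the lower line, Cd33 just above the upper one, and the other 6 between the lines.

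Neither Siglech nor Siglec15 reached 1.5-fold. Siglech, a receptor of plasmacytoid dendritic cells, read 6.53 on both arrays, a difference of exactly 0. Such ties are found in 197 of the genes compared (1.57%), and where they come from was not stated, so a tie is not a measurement of equality. Its start window holds the motif TCACGTGA, an E-box of the CLEAR type bound by the lysosomal regulator TFEB, 57 bases before the annotated start. That motif was found in 0.974% of all windows, and the windows of the other 6 members did not hold it. Siglec15, known from osteoclasts, read 6.01 in the array labelled knockout and 6.39 in the array labelled wild type. Its difference of -0.38 was 1.47 times its local spread, and 18.2% of genes of similar level differed by as much. Tyrobp, the gene of DAP12 itself, differed by 0.20, with both readings far above background.

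The other members read as follows. Cd22, the inhibitory Siglec of B cells, read 7.42 on both arrays, 2.11 and 2.05 above background in the arrays labelled knockout and wild type, with a difference of 0.00. Mag, the myelin-associated glycoprotein of myelin-forming glia, read 6.38 in the array labelled knockout and 6.62 in the array labelled wild type. Its difference of -0.23 was less than its local spread of 0.27. Siglec1, the sialoadhesin of tissue macrophages, read 5.56 in the array labelled knockout and 5.71 in the array labelled wild type. Those readings were 0.25 and 0.34 above background, the smallest margins of the 9 genes. Without replicates a difference of this size cannot be told from none.

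The sorted cells carried the marker genes of alveolar macrophages. All 9 such genes measured lay above background on both arrays, between 10.03 and 13.27 in the array labelled knockout and between 9.46 and 13.14 in the array labelled wild type. Their mean level was 11.5 and 11.3 on those arrays, and 7 of the 9 read higher in the array labelled knockout. Pparg, the transcription factor of this cell type, read 10.68 in the array labelled knockout and 10.53 in the array labelled wild type. Past 1.5-fold were Fabp5 and Fabp4, fatty acid binding protein genes that were higher by 0.72 and 0.62, and the keratin gene Krt79, with a difference of -0.98. That is 2 higher and 1 lower of the 9, where 3.84% of all genes compared were higher and 2.16% lower by 1.5-fold. At the levels of these markers the median gene was itself higher by 0.12 or 0.15. In RNA from sorted populations, fewer cells of a type and less RNA per cell cannot be told apart.

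Markers of other cells that use Siglecs were set beside the members. Of 7 eosinophil genes, 2 lay above background in the array labelled knockout and none of the 7 in the array labelled wild type. Ccr3, the eotaxin receptor gene, read 3.61 and 2.90 on those arrays, and the mean level of the list was 4.64 and 4.32. Its part in the Siglecf value was not tested. Of 10 neutrophil genes, all 10 lay above background on both arrays and 8 read higher in the array labelled knockout. Their mean level was 8.23 there against 7.81 in the array labelled wild type, with a median difference of 0.52. By 1.5-fold, 5 of the 10 were higher and 1 lower, beside 3.84% and 2.16% of all genes compared. Of 7 monocyte genes, 5 lay above background on both arrays, and their mean level was 6.09 in the array labelled knockout and 6.84 in the array labelled wild type. The 5 monocyte genes that passed the filter were all lower, 4 of them by 1.5-fold, with a median difference of -1.02. Siglece is used by both of these cell types, and the part of either in its lower value was not tested. The sort kept only cells with Siglec-F and CD11c, a gate meant to leave such cells out. Interstitial macrophage genes, 8 of 9 above background in the array labelled knockout and 6 of 9 in the array labelled wild type, had mean levels of 6.47 and 6.17. Their median difference was 0.14, with 7 higher and 2 lower. By 1.5-fold, 2 of the 9 were higher and 0 lower, beside 3.84% and 2.16% of all genes compared. These were Ms4a7, 2.38-fold higher, and C1qb, 1.56-fold higher. The part of interstitial macrophages, which the same gate is meant to leave out, in the Cd33 value was not tested.

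B cell genes, for Cd22 and Siglecg, lay above background in 7 of 9 cases in the array labelled knockout and 8 of 9 in the array labelled wild type, with mean levels of 5.70 and 5.87. Cd79b, the highest of the list, read 7.6 on both arrays, slightly above Cd22. Cd79a read 6.30 and 6.45 on the arrays labelled knockout and wild type, and Ms4a1, which encodes CD20, 5.37 and 5.43, close to background. Plasmacytoid dendritic cell genes, for Siglech, lay above background in 7 of 10 cases on each array, with mean levels of 6.69 and 6.45. Among them Bst2 and Irf8 are also used by macrophages, and Ccr9 was below background on both arrays. Ly6d lay well above background, at 7.85 in the array labelled knockout and 7.75 in the array labelled wild type. The 7 that passed the filter had a median difference of 0.325, with 5 higher and 2 lower. Only Cox6a2 was past 1.5-fold, 1.585-fold higher, where 3.84% of all genes compared were 1.5-fold higher. The part of such cells in the Siglech reading was not tested. Glial genes, for Mag, read between 5.27 and 5.73 in the array labelled knockout and between 5.24 and 5.88 in the array labelled wild type, all near background, while Mag itself was 1.08 and 1.24 above it on the arrays labelled knockout and wild type. Osteoclast genes, for Siglec15, lay above background in 6 of 8 cases on each array. Their mean level was 7.84 and 7.37, with Acp5 and Ctsk, which alveolar macrophages also express, higher by 1.13 and 1.32. Calcr, the calcitonin receptor gene of osteoclasts, was below background on both arrays.

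**Figure D3:**
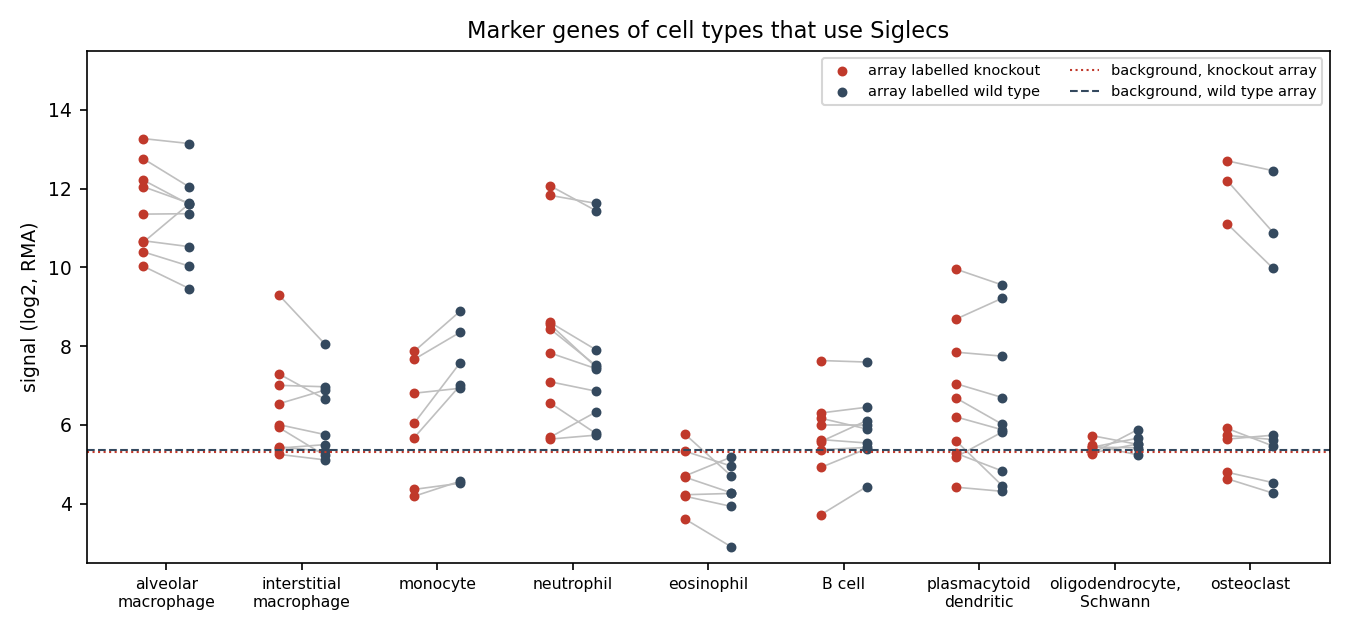
Signal (log2, RMA) of marker genes of 9 cell types on the array labelled knockout (red, left) and the array labelled wild type (dark, right), each gene joined by a line, with the background levels dotted or dashed. All alveolar macrophage markers lie far above background, the glial markers lie near background, most eosinophil markers below it, and the 5 monocyte markers above background read lower in the array labelled knockout.

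Genes that make, move and degrade sialic acid, the ligand of all Siglecs, had a median difference of 0.11 over the 7 of 8 that passed the filter. All 7 read higher in the array labelled knockout and 1 reached 1.5-fold, where 3.84% of all genes compared were 1.5-fold higher. The smallest difference was 0.03, below the median difference of 0.12 among genes of similar level. The largest difference was that of Npl. This lyase gene, whose product cleaves free sialic acid, read 8.12 in the array labelled knockout and 7.44 in the array labelled wild type (1.59-fold). Slc17a5, which encodes the lysosomal sialic acid exporter sialin, read 8.33 in the array labelled knockout and 7.78 in the array labelled wild type, a difference of 0.55. Renbp, an N-acetylglucosamine epimerase, differed by 0.54, and Slc35a1, the Golgi importer of activated sialic acid, by 0.11. The Slc35a1 difference was 0.41 times its local spread. With the arrays centred on their medians, 3 of the 7 were 1.5-fold higher.

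Sialyltransferases, which attach sialic acid to glycans, had a median of -0.05 over 11 of 20 that passed, with 4 higher and 7 lower. St8sia4, a polysialyltransferase, read 6.93 in the array labelled knockout and 6.19 in the array labelled wild type (1.67-fold), the only one past 1.5-fold. St6galnac6 differed by -0.51. St6gal1 and St8sia5 were below background in the array labelled wild type, St6gal1 was at least 1.03-fold higher, and for St8sia5 no fold above background could be given. Sialidases and enzymes that modify sialic acid had a median of -0.22 over 6 of 8, none 1.5-fold apart. Siae, which removes O-acetyl groups from sialic acid, differed by 0.45 and Casd1, which adds them, by -0.36. The sialidase gene Neu1 differed by -0.23, and Neu3 was below background in the array labelled knockout and at least 1.15-fold lower. Carriers of Siglec ligands had a median of 0.01 over 8 of 10, none 1.5-fold apart, with Muc1 at -0.33, Cd52 at -0.25 and Cd24a, the gene of a Siglec-G ligand, at 0.22. Muc5b was below background in the array labelled knockout and at least 1.05-fold lower.

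Downstream of the receptors, all 8 ITIM pathway genes that were measured, of 10 listed, read lower in the array labelled knockout. Their median was -0.23 and 1 was past 1.5-fold, where 2.16% of all genes compared were 1.5-fold lower. The differences ran from -0.73 to -0.04, the smallest being 0.15 times its local spread. The list was chosen with earlier results of these data known, so the shared direction is no test of the pathway. Socs3, a suppressor of cytokine signalling, read 6.47 in the array labelled knockout and 7.20 in the array labelled wild type (1.66-fold lower). Cbl, a ubiquitin ligase, was below background in the array labelled knockout and at least 1.13-fold lower. The Src family kinase genes Fgr and Src differed by -0.51 and -0.29. Ptpn6, which encodes SHP-1 and was named after its value was seen, read 10.12 in the array labelled knockout and 10.29 in the array labelled wild type. The Ptpn6 difference was 0.58 times its local spread. The ITAM pathway had a median of -0.11 over 7 genes, 3 higher and 4 lower. The adaptor gene Hcst, which is on this list although its product holds no ITAM itself, differed by 0.53. The kinase genes Syk and Btk differed by -0.34 and -0.29, and none of the 7 was 1.5-fold apart.

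**Figure D4:**
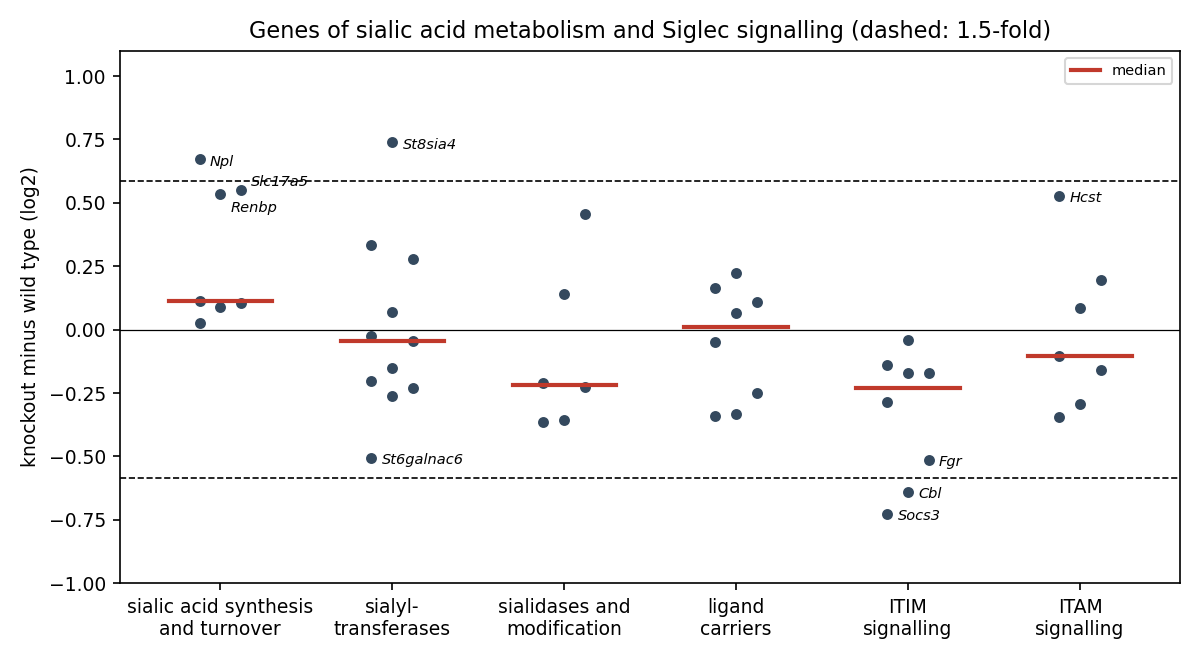
Differences (knockout minus wild type, log2) of the genes of 6 lists that passed the filter, 1 point per gene, with the list median as a red bar and dashed lines at 1.5-fold. The 7 genes of sialic acid synthesis and turnover lie above 0 and the 8 of ITIM signalling below it. Points are drawn as read, also for genes below background on 1 array, such as Cbl, Neu3, Muc5b, St6gal1 and St8sia5.

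Differences of the 9 genes were recomputed under 5 other ways of scaling or summarising. Taking the highest row of a gene could not change them, because each of the 9 has 1 row. Siglece ranged from -1.07 to -0.94 and Siglecf from -0.79 to -0.67, both past 1.5-fold throughout. Cd33 ranged from 0.54 to 0.70. It passed 1.5-fold after median centring and with the offset of 32, and fell short after quantile normalisation and loess centring. Siglec15 ranged from -0.38 to -0.27, Mag from -0.23 to -0.16, Siglec1 from -0.15 to -0.09 and Siglecg from -0.12 to -0.05, none of them past 1.5-fold. Siglech and Cd22 stayed between -0.02 and 0.07, and the sign of Cd22 turned under 2 of the 5.

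**Figure D5:**
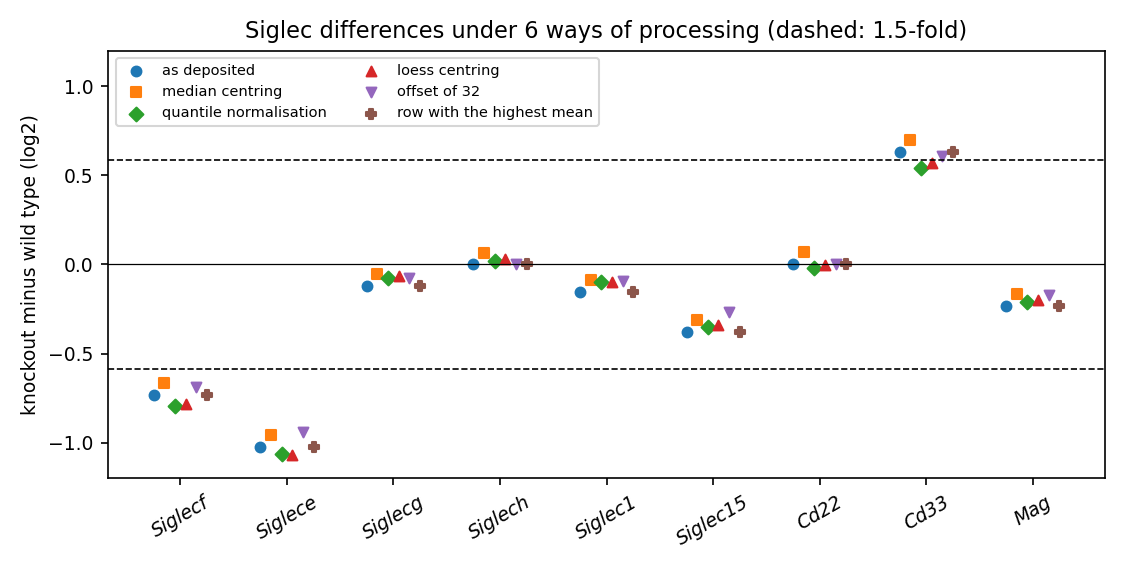
Differences (knockout minus wild type, log2) of the 9 Siglec genes as deposited and under 5 other ways of processing, 1 symbol per way, with dashed lines at 1.5-fold. Siglecf and Siglece stay below the lower line throughout, and Cd33 falls short of the upper line under quantile normalisation and loess centring.

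The readings closest to those of Cd33, the member with the highest mean, were those of Renbp, Marco and Tmed3, at distances of 0.08, 0.09 and 0.09 log2 units over the 2 arrays. Likeness over 2 arrays says only that the readings lie close, and levels of different rows are not on a common scale.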

How the data were processed

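Per the labels' protocols, collagenase-digested lung cells of littermates that were negative for DAPI and positive for Siglec-F and CD11c were sorted, and amplified cDNA from 10 ng of total RNA was biotinylated and hybridised to 1 Affymetrix array per genotype. The deposited values are log2 signals for 41345 rows, which the authors processed with RMA, per the submitters' processing notes. The log base follows from the method and the range of values. The version, annotation and build were not stated. Rows with 1 symbol in the platform annotation (23521) were named and averaged per gene. Precision is limited by the number of arrays, and signal over background stands in for depth.

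The local spread is the median absolute deviation times 1.4826, taken around the median difference in each of 20 level bins. Ratios to it use the difference as read and not its distance from that median. Genes below background on 1 array were measured from that level. The calculation was tested on simulated data. The members and lists were chosen with earlier results of these data known, the motifs and printed windows after the values were seen. The text names all 9 members, up to 4 genes of each pathway list with the largest difference, marker genes, the 3 genes nearest to the highest member, and neighbours in gene order (3 on each side). Python 3.11.15, pandas 2.3.3 and statsmodels 0.14.6 (loess, span 0.3) were used. The alternatives were median centring, quantile normalisation, loess centring, an added linear offset of 32, the highest row of a gene, 3 other filters and a 2-fold threshold.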

Additional observations from a re-analysis of the deposited data

How the results depend on the processing

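No paired analysis was possible because each genotype has 1 array and no replicate numbers. Of the recomputed values and counts, 229 stayed near those as deposited and 16 did not. Member differences were judged against their local spread and list medians against the lowest local spread, 0.20. Counts were judged against 1.5 times the count. Some of the 229 could not have moved, such as member differences under the highest-row setting and Siglec counts without a filter. Their number therefore does not measure how firm the results are. The count of Siglec genes 1.5-fold higher (1 as deposited) was 0 after quantile normalisation and 0 after loess centring, and at 2-fold 0 were higher and 1 lower. Median centring, which shifts the median of genes compared by 0.07, gave 3 higher genes in the sialic acid synthesis and turnover list (1 as deposited) and 1 in the ITAM list (0 as deposited). The offset of 32 left 0 sialyltransferases higher, and 283 higher and 113 lower among all genes. The filter at the 75th percentile moved the median of the sialic acid list to 0.33 and left 175 lower genes. At 2-fold, 0 genes were higher in the sialic acid list and 0 among sialyltransferases, 0 were lower in the ITIM list, and 101 and 34 of all genes were higher and lower. Readings near background, as for Siglecg and Siglec1, limit what can be seen of those genes.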

Other observations

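Of 40 measured genes within 3 places of a member, 21 passed the filter and none of these was 1.5-fold apart, where 5.99% of all genes compared were. They had a median difference of -0.06 and a range from -0.56 to 0.55. The highest was Nkg7, a granule membrane protein of cytotoxic lymphocytes, which lies 3 places from Siglecf and read 8.47 in the array labelled knockout and 7.92 in the array labelled wild type. The lowest was Zfp658, next to Cd33, which read 5.46 in the array labelled knockout and 6.01 in the array labelled wild type. As read, Cd33 and this neighbour differed in opposite directions. Zfp658 was short of 1.5-fold, and its reading in the array labelled knockout lay close to the background of 5.31.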
